A study of Mus musculus with 71 samples.

Results

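The 10 genes described here encode platelet adhesion receptors and proteins of the platelet alpha granule: Vwf, Pf4, Ppbp, Itga2b, Itgb3, Gp1ba, Gp1bb, Gp9, Gp5 and Gp6. They were found by symbol among the 55416 genes of a whole-blood count table, and 9 of them were also among the 10508 genes of the normalised table used for testing. Gp1bb was in the count table only. In the GENCODE vM39 annotation of build GRCm39, Pf4 (chr5:90918479-90922110) and Ppbp (chr5:90916371-90917930) are neighbours, Vwf lies on chr6:125523737-125663642 and Gp9 on chr6:87755047-87756750. Itgb3 lies on chr11:104498826-104561302, Gp1ba on chr11:70529948-70532862, Gp5 on chr16:30126502-30129631 and Gp6 on chr7:4366964-4400743. RNA-seq was performed on terminal whole blood of 71 mice in a model of systemic sclerosis, in which skin fibrosis is induced by repeated intradermal injection of hypochlorous acid (HOCl). There were 11 mice labelled control and 12 labelled HOCl, and 12 HOCl mice in each of the groups labelled E07, D11, D06 and BPR21. The animals were female Balb/c AnNRj mice, 6 weeks old when included. HOCl was given on 5 days a week for 6 weeks, and control mice received phosphate-buffered saline. E07 and D11 are monoclonal antibodies against galectin-3, a lectin that binds beta-galactoside sugars, and were injected under the skin at 20 mg/kg, then every 5 days. For D06 and BPR21 the labels give the names alone, so these groups are described only as labelled. The genotype label of the control mice reads HOCL, so groups were taken from the sample titles. Experimental and control groups were housed in separate cages, and cage and group cannot be told apart. The total count was between 11932855 and 15948972 per mouse, with a median of 13719277.

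Platelets are fragments shed by megakaryocytes that carry their RNA, and whole blood therefore contains platelet transcripts alongside those of leukocytes and young red cells. Von Willebrand factor (Vwf) is stored in alpha granules and bridges exposed collagen to the GPIb-IX-V complex, made of the products of Gp1ba, Gp1bb, Gp9 and Gp5. Gp6 encodes the collagen receptor that signals for activation, after which the integrin made of the products of Itga2b and Itgb3 binds fibrinogen and joins platelets to each other. Pf4 and Ppbp encode chemokines released from the alpha granule. In a bulk sample, fewer platelets and less RNA per platelet cannot be told apart.

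The promoters of 4 of the genes are shown as a description, with matches to the core motifs of GATA and ETS transcription factors in capitals. RefSeq's promoter table, with 250 bases before and 50 after the gene start on build GRCm38.p6, held 8 of the 10 genes, not Vwf or Itgb3. A GATA match was AGATAA or AGATAG or TGATAA or TGATAG, and an ETS match was CCGGAA or CAGGAA, on either strand. GATA matches lay in 5 of the 8 promoters, against 29.8% of the 32851 promoters in the table. ETS matches lay in 4 of the 8, against 41.4%, and both kinds in 2 of the 8, namely Pf4 and Gp1ba, against 11.4%. Gp1bb, which is not in the normalised table, is counted in the 5 with a GATA match. The promoter of Gp9 had no match of either kind, and the 4 shown all have at least 1. A match is a description of these letters and not a measured site.
Pf4, chr5:90772185-90772484, plus strand: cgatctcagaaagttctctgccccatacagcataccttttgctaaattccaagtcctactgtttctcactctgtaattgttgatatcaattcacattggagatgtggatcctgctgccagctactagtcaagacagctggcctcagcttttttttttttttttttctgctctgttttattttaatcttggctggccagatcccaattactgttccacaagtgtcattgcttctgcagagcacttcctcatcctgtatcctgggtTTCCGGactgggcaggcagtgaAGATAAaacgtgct
Gp1ba, chr11:70638872-70639171, plus strand: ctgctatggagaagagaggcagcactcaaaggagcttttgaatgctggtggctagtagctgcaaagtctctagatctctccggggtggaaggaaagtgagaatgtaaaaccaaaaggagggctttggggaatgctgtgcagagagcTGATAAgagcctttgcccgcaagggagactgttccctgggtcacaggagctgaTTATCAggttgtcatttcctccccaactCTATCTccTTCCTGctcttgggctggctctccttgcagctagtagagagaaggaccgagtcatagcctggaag
Gp5, chr16:30310732-30311031, minus strand: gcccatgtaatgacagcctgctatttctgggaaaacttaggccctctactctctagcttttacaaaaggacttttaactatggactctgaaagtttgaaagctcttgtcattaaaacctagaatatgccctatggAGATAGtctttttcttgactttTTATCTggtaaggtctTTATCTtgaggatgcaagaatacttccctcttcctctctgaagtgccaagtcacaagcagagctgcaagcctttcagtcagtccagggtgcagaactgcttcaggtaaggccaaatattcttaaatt
Itga2b, chr11:102469834-102470133, minus strand: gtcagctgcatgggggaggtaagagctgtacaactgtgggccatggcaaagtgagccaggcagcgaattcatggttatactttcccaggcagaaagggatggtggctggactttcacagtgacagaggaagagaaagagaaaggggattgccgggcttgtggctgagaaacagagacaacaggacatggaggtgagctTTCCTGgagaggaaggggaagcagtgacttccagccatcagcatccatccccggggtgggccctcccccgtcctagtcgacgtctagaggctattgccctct
The Pf4 window has 1 GATA and 1 ETS match, Gp1ba has 3 and 1, Gp5 has 3 GATA matches and no ETS match, and Itga2b has 1 ETS match and no GATA match in this window.

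Before the comparisons, the make-up of the libraries differed between groups. Markers of the red cell lineage, 20 of 21 of which were in the count table and led by Alas2, the haem synthesis enzyme of erythroid cells, made up 7.05% ± 2.25 of all counts in control mice (SD, n = 11). Their share was 11.6% ± 2.49 in HOCl mice and 6.60% ± 1.61 in E07 mice (SD, n = 12 each). D11 mice had 8.51%, D06 mice 9.85% and BPR21 mice 8.79%. The size factor of the median-of-ratios method, by which most genes scale, was 1.29 ± 0.259 in control, 0.936 ± 0.226 in HOCl and 1.28 ± 0.171 in E07 mice (SD), although total counts were alike. Scaling to the total count instead therefore moved the median of all genes from -0.02 to -0.46 on the log2 scale in HOCl versus control, and from 0.02 to 0.49 in E07 versus HOCl. For the other comparisons with control, the all-gene median under total-count scaling was 0.02 for E07, -0.36 for D11, -0.57 for D06 and -0.38 for BPR21. It was 0.39 for E07 versus D11, and for D11, D06 and BPR21 versus HOCl it was 0.09, -0.09 and 0.07. Values on the deposited normalised scale, a variance-stabilising transform (vst) close to log2, are given below, and the change relative to the all-gene median is set beside them. The 10 platelet genes together took 0.404% ± 0.0844 of all counts in control mice, 0.446% ± 0.126 in HOCl mice and 0.418% ± 0.0474 in E07 mice. The corresponding shares were 0.481% in D11, 0.465% in D06 and 0.485% in BPR21 mice. The groups overlapped widely in this share.

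**Figure D1:**
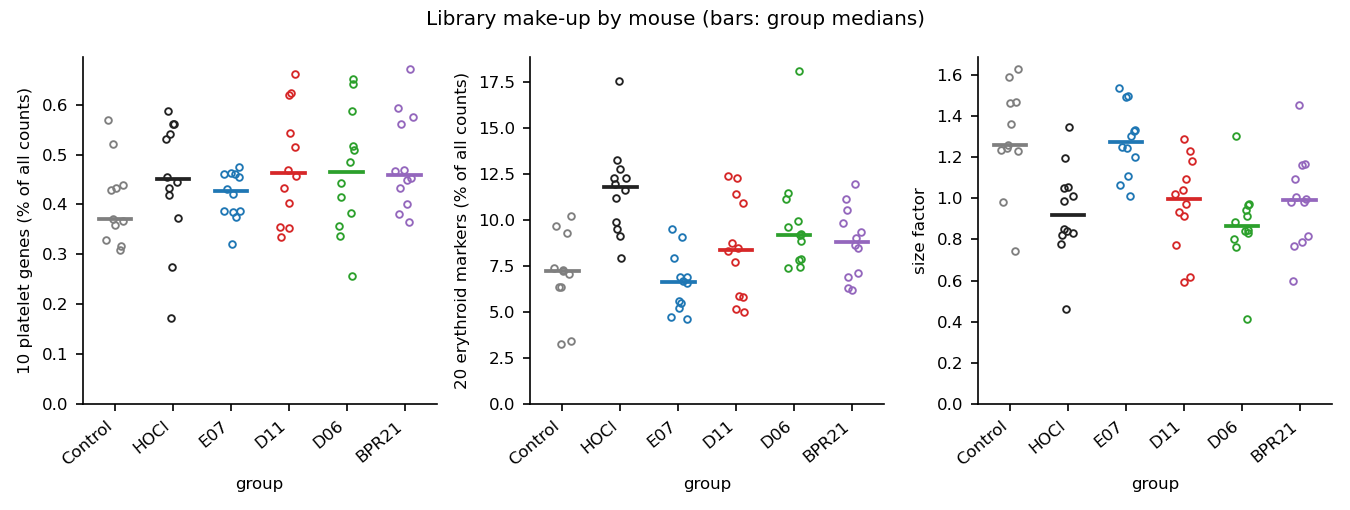
Share of all counts taken by the 10 platelet genes (left, percent), share taken by 20 erythroid markers (middle, percent) and median-of-ratios size factor (right, no unit) in each of 71 mice, by group, with bars at the group medians. The platelet share overlaps in all 6 groups, while the erythroid share is highest in HOCl mice, with a median of 11.8%, and the size factor is highest in control and E07 mice, with medians of 1.26 and 1.28.

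Several libraries stood apart. HOCl mouse 7 and D06 mouse 5 had the highest erythroid shares, 17.6% and 18.1%, and the lowest size factors of their groups, 0.464 and 0.414. Their platelet shares, 0.173% and 0.257%, were also the lowest of their groups. Control mouse 4 had the highest platelet share of its group, 0.570%, and a vst value of Vwf of 11.88, when the next control mouse was at 10.93. HOCl mouse 8 had counts but no vst column, so HOCl enters the vst comparisons with 11 mice.

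Among the genes, levels are comparable only per length, and CPM (counts scaled to the library total) per kilobase of the canonical transcript are used. In control mice the alpha granule chemokines were the most abundant, with a median of 971 for Pf4 and 930 for Ppbp. Gp9 followed at 292, Itga2b at 91.5, Itgb3 at 32.6 and Gp5 at 30.0. Gp6, Vwf and Gp1ba were lower, at 15.8, 14.3 and 10.6. The ranges over control mice overlapped for each pair of neighbours in this order except Ppbp with Gp9 and Gp9 with Itga2b. With the summed length of all annotated exons in place of the canonical transcript, Ppbp, at 814, came before Pf4, at 589, and Vwf, at 7.54, came after Gp1ba, at 10.5.

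The comparison of HOCl with control mice asks how the induced disease changes blood transcripts. On the vst scale 5 of the 9 tested genes were higher in HOCl mice, namely Vwf, Pf4, Ppbp, Itga2b and Gp9, at a false discovery rate (FDR) of at most 0.05 over all genes and a fold change of at least 1.3. Over all 10508 genes, 4.79% were called higher. Vwf ranged from 9.94 to 11.88 in control mice, with a median of 10.50, and from 10.65 to 11.68 in HOCl mice, with a median of 11.49. All 11 HOCl mice lay above the control median, and none lay above control mouse 4. The log2 fold change of Vwf was 0.70 (95% CI 0.34 to 1.06, FDR 0.0171, limma). Pf4 ranged from 13.48 to 14.66 in control mice, with a median of 13.97, and from 13.95 to 15.01 in HOCl mice, with a median of 14.59. Of the 11 HOCl mice 10 exceeded the control median, and 4 exceeded every control mouse, with a log2 fold change of 0.61 (95% CI 0.33 to 0.89, FDR 0.00786). Ppbp, which lies beside Pf4 on chromosome 5, had control values of 12.94 to 14.07 with a median of 13.64 and HOCl values of 13.51 to 14.74 with a median of 14.09. For this chemokine 7 of 11 HOCl mice were above every control mouse, and the log2 fold change was 0.54 (95% CI 0.25 to 0.83, FDR 0.0219). The changes of Itga2b and Gp9 were 0.53 (FDR 0.0469) and 0.63 (FDR 0.0165), with 10 and 11 of 11 HOCl mice above the control median. Itgb3, Gp1ba, Gp5 and Gp6 had estimates of 0.43, 0.40, 0.43 and 0.35 and FDRs of 0.132, 0.0902, 0.0913 and 0.144, and did not pass.

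These directions hold relative to the rest of the transcriptome. The median over the 9 genes was 0.55 above the all-gene median on the vst scale and 0.53 above it under total-count scaling, but as a share of all counts total-count scaling left a median of 0.07, with Gp6 turned to -0.07, and called none of the 9. Under that scaling the calls over all genes were 317 higher and 5141 lower, against 503 and 18 on the vst scale. The erythroid markers moved with the same contrast: 19 of the 20 tested were called higher, with a median log2 fold change of 1.43. With the mean erythroid score as a covariate, the 9 estimates were between 0.37 and 0.68, against 0.35 to 0.70 without it. FDRs were between 0.313 and 0.410, no member was called, and 1 of all 10508 genes was. The markers of the score differed with group here, so this fit cannot tell score and group apart. Without control mouse 4, left out after the values were seen, 8 of the 9 genes were called, Itgb3, Gp1ba and Gp5 being added, as were 566 of all 10508 genes. That mouse had the highest control value in 8 of the 9 genes, so its removal lowers the control mean of each of these. On the counts, edgeR called 3 of the 9 and 497 of 12949 genes, and DESeq2 called 6 of the 9 and 677 of 11944 genes.

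**Figure D2:**
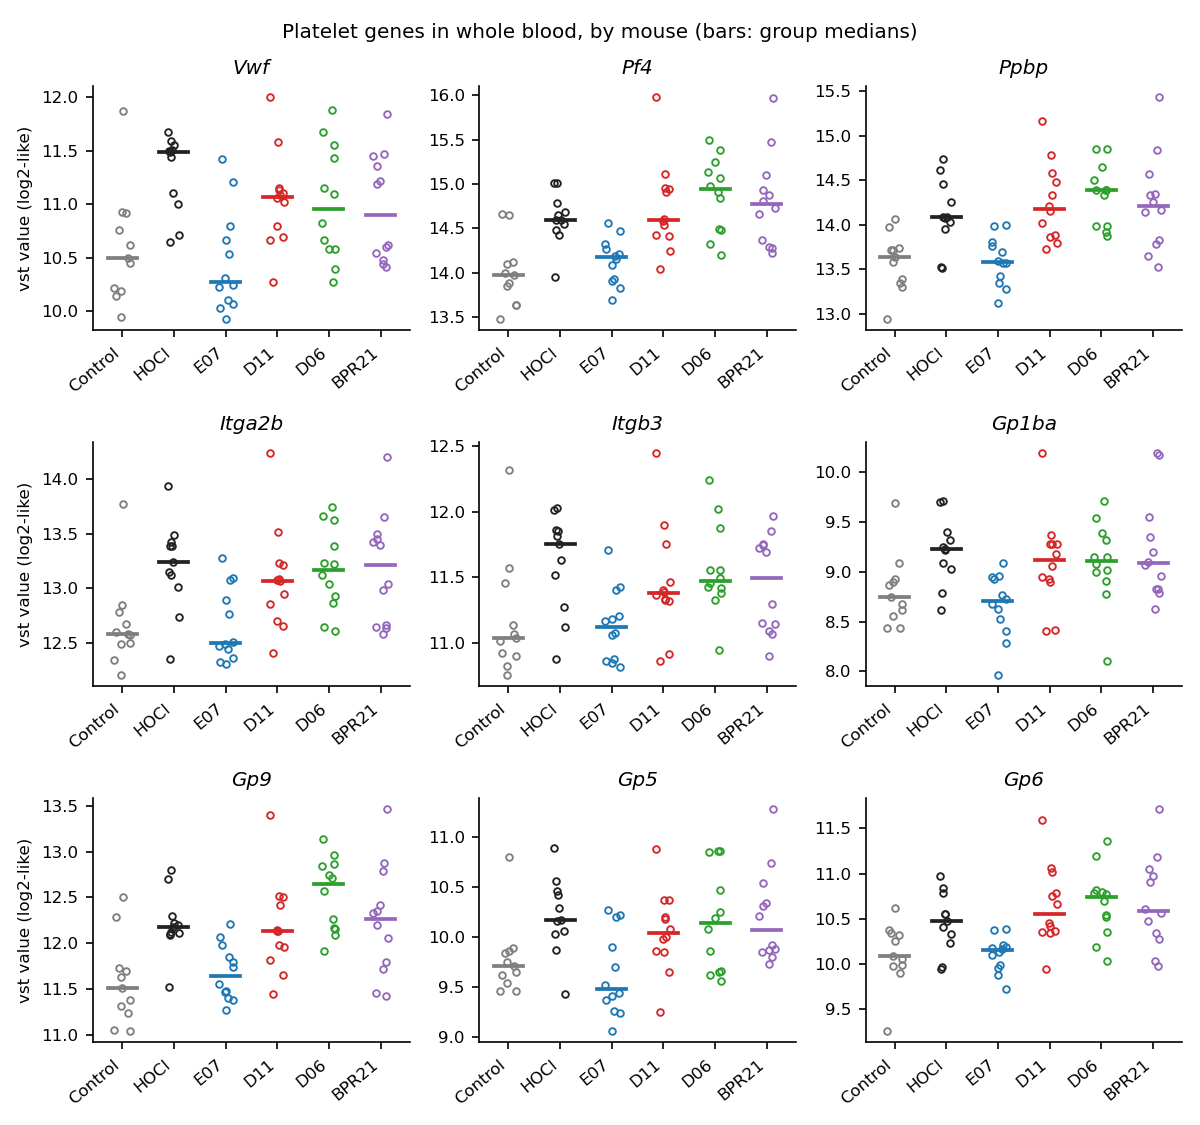
vst values (log2-like) of the 9 tested platelet genes in each mouse, by group, with bars at the group medians; each panel has its own axis. HOCl mice lie above most control mice in every panel, E07 mice lie near control mice, and the D11, D06 and BPR21 groups overlap HOCl mice; as a share of all counts, under total-count scaling, Gp6 turned sign in HOCl versus control, and Pf4, Ppbp and Gp6 did so in E07 versus HOCl.

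E07 mice were compared with HOCl mice to see what the antibody changes in the diseased animal. On the vst scale 8 of the 9 platelet genes were lower with E07, against 7.01% of all genes called lower. Vwf had the largest change of the 9. Its values in E07 mice ranged from 9.93 to 11.42 with a median of 10.28, below the HOCl median of 11.49 in all 12 mice and below every HOCl mouse in 8 of them. The log2 fold change was -0.83 (95% CI -1.16 to -0.50, FDR 0.000834), a fold of 1.78. Pf4 had a median of 14.17 and a range of 13.69 to 14.56 in E07 mice, and all 12 were below the HOCl median. It fell by 0.48 on the log2 scale (FDR 0.00389). Ppbp, with a median of 13.58 and a range of 13.12 to 14.00, lay under the HOCl median in each of the 12 E07 mice and fell by 0.53 (FDR 0.00644). The integrin genes Itga2b and Itgb3 fell by 0.54 (FDR 0.0122, 11 of 12 mice below the HOCl median) and 0.48 (FDR 0.0113, 12 of 12). In the GPIb-IX-V complex, Gp1ba fell by 0.56 (FDR 0.00377, 12 of 12), Gp9 by 0.53 (FDR 0.00441, 11 of 12) and Gp5 by 0.58 (FDR 0.0106, 9 of 12). Gp6, the collagen receptor, had an FDR of 0.0265 with a log2 fold change of -0.35, short of the fold threshold, with 12 of 12 mice below the HOCl median.

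Relative to the all-gene median, the median of the 9 was -0.55 on the vst scale and -0.53 under total-count scaling. As a share of all counts, under total-count scaling, the estimates of Pf4, Ppbp and Gp6 were 0.03, 0.02 and 0.10, those of the other 6 stayed below 0, Vwf being at -0.46 (FDR 0.0521), and none was called. The calls over all genes were then 6472 higher and 310 lower, against 92 and 737 on the vst scale. Of the 20 erythroid markers 19 were called lower, with a median of -1.45. With the erythroid score as a covariate, the estimates of the 9 platelet genes lay between -0.75 and -0.37, against -0.83 to -0.35 without it. FDRs were between 0.234 and 0.391, and no gene of the table was called. Score and group cannot be told apart by this fit here either.

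D11, D06 and BPR21 were each compared with HOCl in the same way, and limma called none of the 9 genes in any of these comparisons, nor did edgeR or DESeq2. Over all genes, edgeR called 29 of 12858, 41 of 12734 and 82 of 12868 for D11, D06 and BPR21. DESeq2 called 170 of 7623, 202 of 5574 and 275 of 10872. The share of all genes called by limma in either direction was 0.0571% for D11, 0.133% for D06 and 0.638% for BPR21. Without D06 mouse 5, left out after the values were seen, limma called 69 of all 10508 genes in D06 versus HOCl, against 14 with it, and none of the 9. At an unadjusted p under 0.05 there were 0, 1 and 0 of the 9 genes, the 1 being Gp9 in D06 mice with a log2 fold change of 0.33 (95% CI 0.03 to 0.62, FDR 0.352). Over all 10508 genes the numbers at that p were 1483, 1338 and 1474. For Vwf the estimates were -0.25 (95% CI -0.57 to 0.08) with D11, -0.28 (95% CI -0.64 to 0.08) with D06 and -0.32 (95% CI -0.68 to 0.03) with BPR21. For Pf4 they were 0.12 (95% CI -0.21 to 0.45), 0.27 (95% CI -0.02 to 0.57) and 0.20 (95% CI -0.14 to 0.54). These intervals leave room for changes of either sign. On the vst scale a fall of Vwf as large as the estimate for E07, -0.83, lies outside each of the 3 intervals for Vwf. The interval for E07, -1.16 to -0.50, overlaps all 3, and E07 was compared directly only with D11. Under total-count scaling Vwf was at -0.23 with D11, -0.47 with D06 and -0.34 with BPR21, against -0.46 with E07, and was not called in any of them. Erythroid markers had medians of -0.66, -0.10 and -0.67 in the comparisons of D11, D06 and BPR21 with HOCl, and none of the 20 was called.

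**Figure D3:**
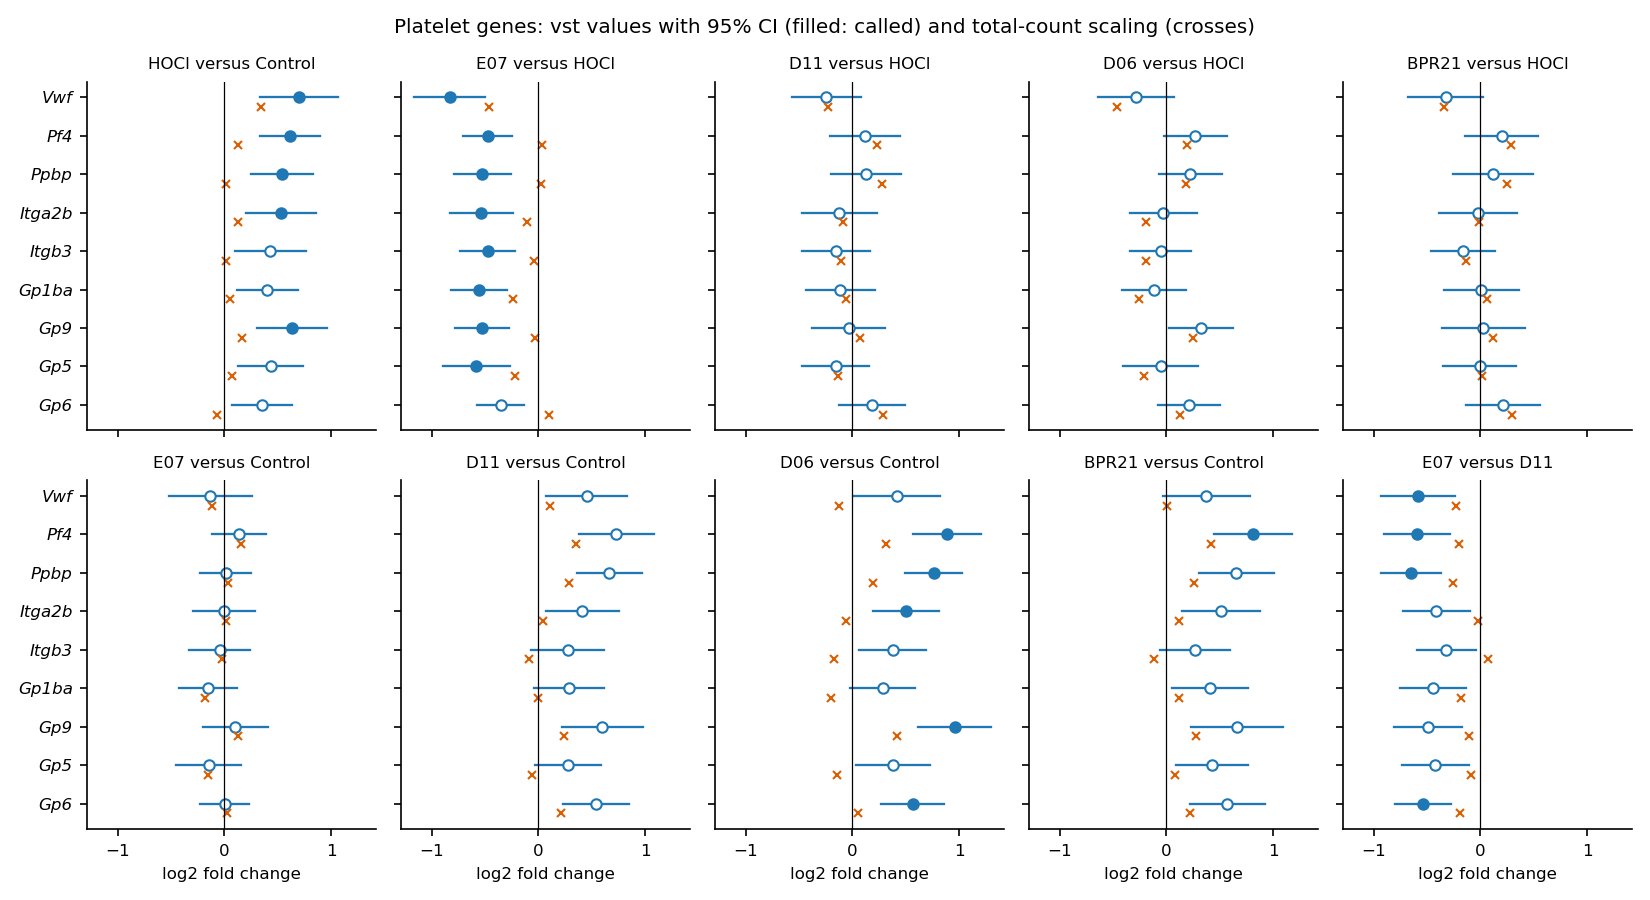
log2 fold changes of the 9 platelet genes in the 10 comparisons, as circles with 95% confidence intervals on the vst scale, filled where the gene was called, and as crosses for total-count scaling. Filled circles appear for 5 genes in HOCl versus control, 8 in E07 versus HOCl, 5 in D06 versus control, 1 in BPR21 versus control and 4 in E07 versus D11, while the crosses show that signs turn under total-count scaling for Gp6 in HOCl versus control, for Pf4, Ppbp and Gp6 in E07 versus HOCl, for 5 genes in D06 versus control, for Itgb3 in E07 versus D11 and in BPR21 versus control, for Itgb3, Gp1ba and Gp5 in D11 versus control, for Gp9 in D11 versus HOCl, for Gp5 in BPR21 versus HOCl and for Itga2b in E07 versus control.

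Each treated group was also set against the control mice, which serve in all of these comparisons. E07 and control mice had close levels: none of the 9 genes was called by limma, edgeR or DESeq2, and none had an unadjusted p under 0.05, against 799 of all genes. Over all genes, limma called 0.00952%, edgeR called 1 of 13273 and DESeq2 called 16 of 13273. The estimates of the 9 ran from -0.15 to 0.14, and the widest reach of their 95% intervals was from -0.52 to 0.41. Differences of that size could not be told from 0 with these mice. In D11 mice limma called none of the 9, against 0.0761% of all genes called higher, although 6 had an unadjusted p under 0.05, as had 1697 of all 10508 genes. DESeq2 called 4 of the 9 and 245 of 4204 genes, and edgeR called 0 of the 9 and 8 of 13078 genes. The number of genes counted as tested differed between these tools, so their shares are not over the same genes. Ppbp and Pf4 had estimates of 0.67 (FDR 0.0851) and 0.73 (FDR 0.0898), with 12 of 12 D11 mice above the control median. Both were called once control mouse 4 was left out, among 20 of all 10508 genes. As a share of all counts, under total-count scaling, Itgb3, Gp1ba and Gp5 turned negative in D11 mice, and Itgb3 did so in BPR21 mice.

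In D06 mice 5 of the 9 were called higher than in control mice, against 7.27% of all genes. Gp9, which encodes a subunit of the GPIb-IX-V complex, had control values of 11.04 to 12.50 with a median of 11.51. Its D06 values were 11.91 to 13.14 with a median of 12.64. Its log2 fold change was 0.96 (a fold of 1.94, FDR 0.000998), 12 of 12 mice were above the control median, and it was the 1 member called under total-count scaling too, at 0.42 (FDR 0.0391). Pf4 was higher by 0.88 (FDR 0.00104), Ppbp by 0.76 (FDR 0.000998), Gp6 by 0.56 (FDR 0.00965) and Itga2b by 0.50 (FDR 0.0301), with at least 11 of 12 mice above the control median in each. Vwf, at 0.42 (FDR 0.208), was not called. Under total-count scaling Vwf, Itga2b, Itgb3, Gp1ba and Gp5 turned negative, from -0.06 to -0.20, and the calls over all genes were 291 higher and 6748 lower, against 764 and 64 on the vst scale, while relative to all genes the median of the 9 was 0.54 on the vst scale and 0.51 on the other. Without control mouse 4 there were 8 calls, with Vwf, Itgb3 and Gp5 added, and 869 of all 10508 genes were called. With the erythroid covariate the estimates of the 9 were between 0.04 and 0.66, against 0.28 to 0.96 without it. Vwf was then at 0.04, Itga2b at 0.19 and Gp6 at 0.37, no member was called, and 3 of all genes were. BPR21 mice had 1 member called, Pf4 at 0.81 (95% CI 0.45 to 1.18, FDR 0.0336, 12 of 12 mice above the control median), against 0.152% of all genes called higher, and 7 members had an unadjusted p under 0.05, as had 2095 of all genes. It was no longer called under total-count scaling, where it was 0.41 (FDR 0.0594) and the calls over all genes were 9 higher and 668 lower, against 16 and 37 on the vst scale. With the erythroid covariate Pf4 was at 0.50 (FDR 0.524) in BPR21 mice, and none of the 9 was called, nor was any of all 10508 genes. All 20 erythroid markers were called higher in D06 mice, with a median of 1.15, and none in D11 or BPR21 mice, where the medians were 0.70 and 0.70.

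The antibodies E07 and D11 were compared directly, which tests their difference. With E07, 4 of the 9 genes were lower than with D11, against 4.27% of all genes. Ppbp fell by 0.65 (FDR 0.0211), with 12 of 12 E07 mice below the D11 median and 8 below every D11 mouse. Pf4 fell by 0.59 (FDR 0.0232, 12 of 12), Vwf by 0.58 (FDR 0.0387, 10 of 12) and Gp6 by 0.54 (FDR 0.0232, 12 of 12). The other 5 had estimates from -0.49 to -0.32 and FDRs from 0.0525 to 0.164. As a share of all counts, under total-count scaling, Itgb3 turned to 0.07, the others stayed below 0 and none was called, with calls over all genes of 4512 higher and 152 lower, against 31 and 449 on the vst scale. Relative to all genes the median of the 9 was -0.51 on the vst scale and -0.57 under total-count scaling. Of the 20 erythroid markers 6 were called lower with E07 than with D11, with a median of -0.74. With the erythroid score as a covariate the estimates of the 9 genes were between -0.47 and -0.11, against -0.65 to -0.32 without it. None of the 9 was called under this covariate, nor was any of all 10508 genes. The fit over all 6 groups called none of the 9 and none of all genes in this comparison. E07 was not tested against D06 or BPR21.

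The order of the group means differed between genes. For Vwf it was HOCl at 11.29 ± 0.364, D11 at 11.05 ± 0.443, D06 at 11.01 ± 0.534, BPR21 at 10.97 ± 0.502, control at 10.59 ± 0.534 and E07 at 10.46 ± 0.478 (SD, n = 11 for HOCl and control, 12 for the others). For Pf4 it was D06 at 14.88 ± 0.423, BPR21 at 14.81 ± 0.524, D11 at 14.73 ± 0.506, HOCl at 14.61 ± 0.292, E07 at 14.13 ± 0.261 and control at 14.00 ± 0.382. Each step between neighbours in either order was smaller than the SDs beside it, apart from HOCl to E07 for Pf4. HOCl mice thus had the highest mean of Vwf, and the means of Pf4 in D06, BPR21 and D11 mice were above theirs.

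The difference between the vst values of Vwf and Pf4 in the same mouse compares these genes within 1 library. It was chosen after the values were seen and is given with no test. Its median was -3.24 in control, -3.33 in HOCl, -3.71 in E07, -3.79 in D11, -3.83 in D06 and -3.85 in BPR21 mice. The number of mice below the HOCl median was 4 of 11 in control, 10 of 12 in E07 and D11, and 11 of 12 in D06 and BPR21. The range in control mice was wide, from -4.52 to -2.77, and overlapped those of all groups. On the raw counts, where no scaling enters, the mean log2 ratio of Vwf to Pf4 was -3.53 in control, -3.31 in HOCl, -3.81 in E07, -3.77 in D11, -3.97 in D06 and -3.94 in BPR21 mice. The HOCl mean on the counts includes HOCl mouse 8, which has no vst values. Itga2b minus Pf4 lay under its HOCl median in 5 of 11 control mice, 10 of 12 E07 mice and 11 of 12 mice of each of the D11, D06 and BPR21 groups. Itgb3 minus Ppbp did not follow this pattern: it lay under its HOCl median in 4 of 11 control mice, 2 of 12 E07 mice, 10 of 12 D11 mice, 9 of 12 D06 mice and 6 of 12 BPR21 mice. Vwf minus Itga2b lay under its HOCl median in 8 of 11 control mice, in 10 of 12 E07 and D06 mice and in 12 of 12 D11 and BPR21 mice. Gp1ba minus Gp9 did so in 1 of 11 control mice and in 7, 8, 11 and 6 of 12 E07, D11, D06 and BPR21 mice.

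**Figure D4:**
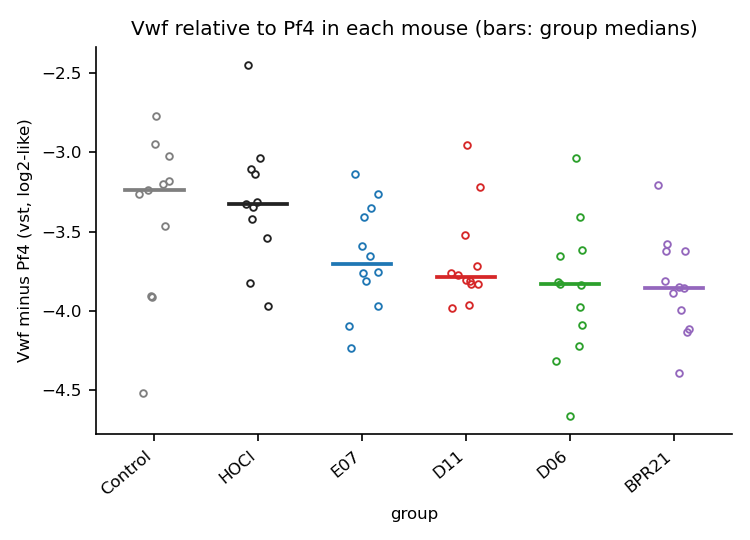
Difference between the vst values of Vwf and Pf4 (log2-like) in each of 70 mice, by group, with bars at the group medians. The medians are -3.24 in control and -3.33 in HOCl mice and between -3.85 and -3.71 in the 4 treated groups, with overlapping ranges.

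Across the 70 mice, with each value taken relative to its group mean, all 36 pairs of the 9 genes were positively correlated, with Pearson's r from 0.608 to 0.925. The values of a mouse share 1 library and its scaling. Pf4 and Ppbp had r = 0.924 and Spearman's rho = 0.914, each with a two-sided permutation p of 1e-05, the smallest that 100000 resamples can give, and adjusted p of 1e-05 and 1.1e-05 over the 36 pairs. Without the 2 mice farthest from the median of Pf4, r was 0.904. Vwf and Itga2b had r = 0.920 and rho = 0.925 (permutation p = 1e-05 for each, adjusted 1e-05 and 1.1e-05), and r = 0.908 without the 2 farthest mice. Vwf and Pf4 were less alike, with r = 0.630 (permutation p = 1e-05, adjusted 1e-05) and rho = 0.552 (permutation p = 2e-05, adjusted 2.1e-05), and r = 0.601 without the 2 farthest mice. Within the 6 groups taken alone, r ran from 0.838 to 0.956 for Pf4 and Ppbp, from 0.884 to 0.976 for Vwf and Itga2b and from 0.242 to 0.819 for Vwf and Pf4.

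Ordered by these values, 2 sets can be described, chosen after they were seen and hence with no test. Among Vwf, Itga2b, Itgb3 and Gp5, r ran from 0.837 to 0.925, and among Pf4, Ppbp, Gp9 and Gp6 from 0.799 to 0.924, whereas the 16 pairs between the sets had r from 0.608 to 0.811. Gp1ba had r from 0.730 to 0.809 with all others. Under total-count scaling the medians of the within-set r were 0.884 and 0.859 and that of the pairs between sets 0.677. The integrin genes Itga2b and Itgb3 share the former set and the chemokine genes Pf4 and Ppbp the latter, while Gp5 and Gp9, of the GPIb-IX-V complex, are in different sets. The canonical transcripts of the former set have 8834, 6163, 5784 and 2232 bases, and those of the latter 1493, 1137, 888 and 5900, so transcript length differs between the sets apart from Gp6 and Gp5, and its part in the pattern was not tested.

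**Figure D5:**
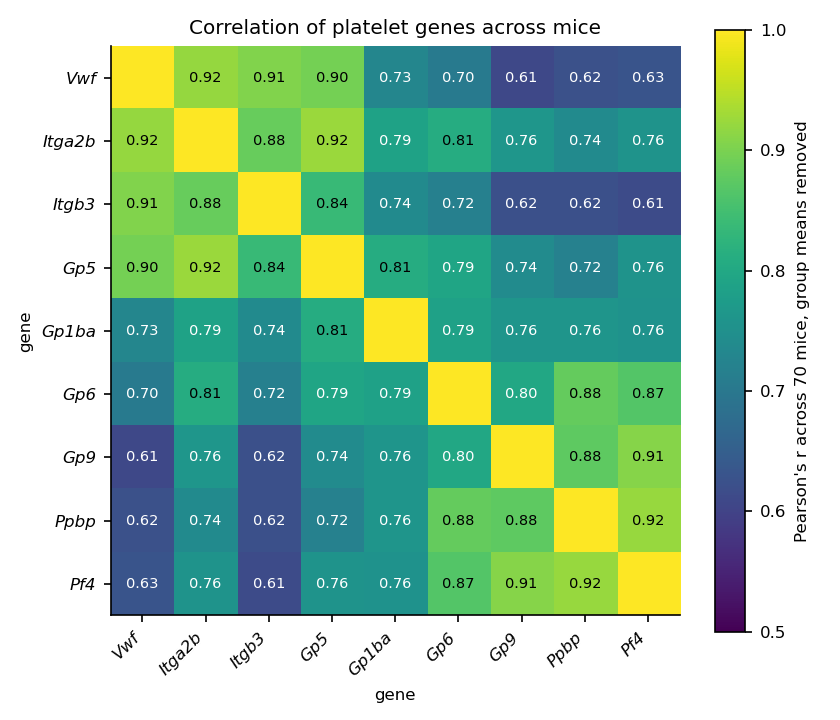
Pearson's r between 9 platelet genes across 70 mice after removal of the group means, with genes ordered so that similar ones are adjacent. Values run from 0.61 to 0.92, and the highest lie among Vwf, Itga2b, Itgb3 and Gp5 and among Pf4, Ppbp, Gp9 and Gp6.

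Outside the set, the 10 genes most like the mean of the 9 standardised genes across the same 70 mice were Parvb (r = 0.953), Clu (0.952), Myl9 (0.951), Alox12 (0.946), Aldh2 (0.944), Pttg1ip (0.943), Pcp4l1 (0.938), Itgb5 (0.937), Gas2l1 (0.934) and Ilk (0.933). This is a ranking of 10499 genes with no test. Clu, Myl9 and Alox12 belong to the lists of other platelet genes used here. The medians of r over those lists were 0.701 for activation receptors and signalling, 0.700 for alpha granule cargo and biogenesis and 0.771 for megakaryocyte regulators and cytoskeleton, against -0.06 over all other genes. Not every listed gene was alike, since the lowest r in these lists were -0.144, -0.291 and 0.117. Among the lists of other cells, the 4 endothelial markers in the normalised table had the highest median, 0.554, with r from 0.227 to 0.861. They include Pecam1, which platelets and leukocytes also express, so this value is not particular to endothelial RNA. Erythroid markers followed at 0.333 and neutrophil markers at 0.0545. Monocyte markers had -0.150, T cell markers -0.238 and B cell markers -0.483.

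Gp1bb, the beta chain that is linked to the product of Gp1ba, was nearly absent from the counts. It had between 0 and 41 counts per mouse with a median of 3, was at 0 in 18 of 71 mice and reached 10 counts in 10. In control mice the median was 1 count, and in HOCl mice 3.5. It failed the filter of 10 counts in 11 mice, and limma on the vst values could not test it. edgeR without a filter called it in none of the 10 comparisons, with no unadjusted p under 0.05, an FDR of 0.243 to 0.927 and log2 fold changes from -1.17 to 1.84. In the GENCODE annotation of build GRCm39 Gp1bb lies on chr16:18439067-18441153, and all 2087 of its exonic bases are also exonic in Septin5 on the same strand, 867 of them in Gm49601 as well. Reads that fall in more than 1 gene are uncertain in such a table, and how they were counted is not given in the sources used here. Septin5 itself, chosen after its values were seen, had between 0 and 38 counts with a median of 6. The part of the overlap in the low counts was not tested. Itga2b, on chr11:102341397-102360955, shares 845 exonic bases with an antisense transcript, Gm74331, and whether the counting used strand is likewise not given, although the library kit marks it. The other 8 members share no exonic base with another gene.

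Other genes of platelets were described from lists by function. Of 22 tested genes of activation receptors and signalling, 2 were called higher in HOCl than in control mice, against 4.79% of all genes, and 7 lower in E07 than in HOCl mice, against 7.01%, with medians of 0.26 and -0.30. These were -0.16 and 0.14 under total-count scaling, where the medians of all genes were -0.46 and 0.49. The sign thus turned with that of all genes, and on both scales the median of the list lay above that of all genes in HOCl versus control and below it in E07 versus HOCl. Cd36, a scavenger and thrombospondin receptor, was higher by 0.85 in HOCl mice (FDR 0.0488) and fell by 0.93 in E07 mice (FDR 0.0063), on the vst scale. Under total-count scaling it kept its call in E07 versus HOCl, at -0.50 (FDR 0.0287), and lost it in HOCl versus control, at 0.44 (FDR 0.0763). Ptgs1, the cyclooxygenase of thromboxane synthesis, was higher in HOCl mice by 0.46 (FDR 0.0352) and had -0.32 in E07 mice (FDR 0.0464, short of the fold threshold). Under total-count scaling Ptgs1 was at 0.13 (FDR 0.553) in HOCl versus control, where it was no longer called, and turned to 0.07 in E07 versus HOCl. Alox12, the platelet lipoxygenase, P2ry12, a receptor for ADP, and Tln1, which activates integrins, fell by 0.50, 0.50 and 0.46 with E07. These 3 were not called in HOCl versus control, and under total-count scaling none of the 3 was called in E07 versus HOCl, with values of 0.01, 0.05 and -0.04.

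Of 14 tested genes of alpha granule cargo and biogenesis, 3 were called higher in HOCl mice (4.79% of all genes) and 7 lower in E07 versus HOCl mice (7.01%), with medians of 0.30 and -0.34 on the vst scale and -0.09 and 0.02 under total-count scaling. F13a1, which encodes the clot-stabilising transglutaminase subunit, fell by 0.88 with E07 (FDR 0.000171), and its estimate in HOCl versus control was 0.43 (FDR 0.0634). It departed from the 9 members elsewhere, without being called. In E07 versus control it was at -0.45 (FDR 0.284), when they ran from -0.15 to 0.14. In D11 versus HOCl it was at -0.50 (FDR 0.179), when they ran from -0.25 to 0.18. Which blood cells its RNA came from was not tested. Clu, Thbs1 and Treml1 were higher in HOCl mice by 0.65, 0.51 and 0.48 and fell by 0.62, 0.61 and 0.52 with E07. F5, coagulation factor V, fell by 0.51 with E07 (FDR 0.0126). Under total-count scaling none of these 5 was called in either comparison, and F13a1 was at -0.39 (FDR 0.0616) in E07 versus HOCl mice and turned to -0.06 in HOCl versus control.

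Of 15 genes of megakaryocyte regulators and cytoskeleton, 5 were called higher in HOCl mice, beside 4.79% of all genes, and 7 lower in E07 versus HOCl mice, beside 7.01%, with medians of 0.31 and -0.36, or -0.10 and 0.12 under total-count scaling. Tpm1, a tropomyosin, was higher by 0.85 in HOCl mice (FDR 0.0115) and fell by 0.99 with E07 (FDR 0.000491), and both were also called under total-count scaling, at 0.41 (FDR 0.0238) and -0.55 (FDR 0.00205). Nfe2, a transcription factor required for platelet release, was higher by 0.61 (FDR 0.00638) and fell by 0.72 (FDR 0.000115). Zfpm1, the GATA cofactor, was higher by 0.44 and fell by 0.55, Gng11 was higher by 0.59 and fell by 0.43, and Tubb1, the platelet beta tubulin, fell by 0.47 with E07 but was not called in HOCl mice. Under total-count scaling Nfe2 was at 0.15 (FDR 0.386) and -0.24 (FDR 0.0857) and Zfpm1 at 0.07 (FDR 0.684) and -0.20 (FDR 0.213), so neither was called in HOCl versus control or E07 versus HOCl. Gng11, at 0.09 (FDR 0.623) in HOCl versus control, was not called there either. Gng11 and Tubb1 turned to 0.10 and 0.04 in E07 versus HOCl mice under that scaling. Nfe2, Zfpm1 and Gata1 are also used by erythroid cells.

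In the other comparisons the 3 lists gave 12 of 22, 6 of 14 and 10 of 15 genes higher in D06 than in control mice, against 7.27% of all genes, and 8, 5 and 9 lower in E07 than in D11 mice, against 4.27%. The medians in D06 versus control were 0.40, 0.27 and 0.45 on the vst scale and turned to -0.05, -0.11 and -0.02 under total-count scaling. In E07 versus D11 they were -0.29, -0.28 and -0.44 on the vst scale and 0.02, 0.01 and -0.05 under total-count scaling. Gng11 was called higher in D11 and in BPR21 than in control mice, by 0.80 and 0.83, against 0.0761% and 0.152% of all genes. Lat, an adaptor of T cells and platelets, was higher in BPR21 than in HOCl mice by 0.39, where 0.238% of all genes were called higher. These 3 calls are the only ones from the lists in D11, D06 and BPR21 versus HOCl and in E07, D11 and BPR21 versus control, and none of the 3 was called under total-count scaling.

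Vwf is also made by endothelial cells. Of 11 endothelial markers, 7 were not in the normalised table, and the mean of each of these 7 was at most 2.14 CPM in every group. Tek and Cldn5 were at 0 in 47 and 43 of 71 mice. The summed level of the list was 238 CPM in control, 215 in HOCl, 236 in E07, 215 in D11, 189 in D06 and 234 in BPR21 mice. Most of it was from Pecam1, which platelets and leukocytes also express, with group means of 131 to 182 CPM, and from Esam, with 42.5 to 48.2 CPM. None of the 4 tested markers was called in HOCl versus control, 1 was called lower in E07 than in HOCl and in D11 mice, against 7.01% and 4.27% of all genes, and 1 was called higher in D06 than in control mice, against 7.27%. The part of endothelial RNA in the level of Vwf was not tested.

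In HOCl versus control mice 3 of 11 neutrophil markers were called higher, against 4.79% of all genes, and none of 6 monocyte, 6 B cell or 7 T cell markers was called. The calls in this paragraph are on the vst scale, whereas the sums in CPM are scaled to the total count. The neutrophil median in HOCl versus control was 0.47 on the vst scale and 0.03 under total-count scaling. In E07 versus HOCl mice, 2 neutrophil and 1 monocyte marker were called lower, against 7.01% of all genes, and 5 of 6 B cell markers higher, against 0.876%, and no T cell marker was called. Summed B cell markers were 1476, 969 and 1880 CPM in control, HOCl and E07 mice, led by Cd79a. Neutrophil markers, led by S100a9, summed to 6180, 5174 and 5678, and monocyte markers, led by Ccr2, to 673, 444 and 480. T cell markers summed to 1452, 957 and 1440, led by Cd3g in control and E07 mice and by Lck in HOCl mice. In D11, D06 and BPR21 mice, respectively, the sums were 1169, 902 and 976 for B cell, 4520, 4561 and 5918 for neutrophil, 372, 345 and 279 for monocyte and 1100, 944 and 1167 for T cell markers. Against HOCl, 1 monocyte marker was called lower in D06 and 3 in BPR21 mice, beside 0.0571% and 0.4% of all genes. Against control the numbers were 1 and 3, beside 0.609% and 0.352%. Against control, 3 neutrophil markers were called higher in D06 mice, where 7.27% of all genes were. Of the 11 neutrophil markers 7 had estimates above 0 there, with a median of 0.08 on the vst scale and -0.50 under total-count scaling. In E07 mice 2 B cell markers were called higher than in D11 mice, where 0.295% of all genes were. The part of these shifts in the platelet genes was not tested.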

How the data were processed

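Whole-blood RNA-seq libraries, stranded, poly A selected and globin depleted, were analysed from 71 mice. The authors deposited raw gene counts, made with Cutadapt, STAR on mm39 and featureCounts, and log2-like vst values of DESeq2 for 10508 protein-coding genes after a filter on low expression. No column lacked a sample. Each comparison was fitted with limma 3.58.1 in R 4.3.3 on the vst values of its own 2 groups, with Benjamini-Hochberg adjustment over all genes, and a gene was called at FDR at most 0.05 and fold change at least 1.3. Counts were tested with edgeR 4.0.16 and DESeq2 1.42.0 on genes with at least 10 counts in at least 11 mice, and log2(CPM + 1) of the total count with limma. DESeq2 counted fewer of these genes as tested than edgeR, except in E07 versus control. Limma on vst values, filtered edgeR, DESeq2 and limma on CPM were tested on simulated counts modelled on HOCl versus control mice. The simulation had no shift in library make-up between the groups. The fits with a covariate, a replicate block, all 6 groups, trend and robust variances or no filter were not simulated. No library pair within a group agreed within counting noise.

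The 10 members and all lists were chosen with earlier results of these data known. The rule for named genes took all members, the 5 genes of each other platelet list called in HOCl versus control or E07 versus HOCl with the largest change, and the 10 genes most like the members across mice. Correlations used Python 3.11.15 and scipy 1.17.1. Positions are from GENCODE vM39, in which 54749 of 55416 identifiers were found, and promoters from RefSeq.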

Additional observations from a re-analysis of the deposited data

Results flagged for a closer look

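HOCl mouse 8, which had counts but no vst values and so stayed out of the vst comparisons, had levels of Vwf and Itga2b above every control mouse. Vwf was at 289 CPM, against a control range of 53.4 to 278, and Itga2b at 1114, against 325 to 1058. Ppbp of the same mouse, at 786 CPM, was below every control mouse, whose lowest value was 808. These ranks are under total-count scaling. The size factor of this mouse was 0.823, against a control median of 1.26. Scaling by the size factor would raise its levels relative to most control mice, and the rank of Ppbp on that scale was not tested. The difference within this mouse was not tested.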

How the results depend on the processing

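The number of members called by limma on the vst values was 5 in HOCl versus control, 8 in E07 versus HOCl, 5 in D06 versus control, 1 in BPR21 versus control, 4 in E07 versus D11 and 0 elsewhere. Total-count scaling gave 0 in HOCl versus control, E07 versus HOCl, BPR21 versus control and E07 versus D11, and 1 in D06 versus control. It turned the sign of called genes in 3 cases, Pf4 (0.0318) and Ppbp (0.0223) in E07 versus HOCl and Itga2b (-0.0615) in D06 versus control. By construction it keeps the shift of all genes in the estimates. The erythroid covariate gave 0 in each of the 5 comparisons with calls, with 1, 0, 3, 0 and 0 of 10508 genes called in the order given above. The markers of that score had medians of 1.43, -1.45, 1.15, 0.70 and -0.74 in these comparisons. Score and group went together, so this fit cannot tell them apart, and the part of red cells was not tested. edgeR gave 3 in HOCl versus control, with 497 of 12949 genes called, and edgeR without a filter 2 in BPR21 versus control, with 280 of 26306. DESeq2 gave 4 in D11 versus control, 4 in BPR21 versus control and 7 in E07 versus D11, with 245 of 4204, 527 of 12576 and 979 of 12136 genes called. The fit over all 6 groups gave 1, 4 and 0 in these same 3 comparisons, with 11, 406 and 0 of 10508 genes called, when limma on each comparison alone called 8, 53 and 480. In HOCl versus control that fit gave 4, with Itga2b at an FDR of 0.0545, and in E07 versus HOCl it gave 6. Over all genes it called 511 and 681 there. Without control mouse 4, chosen after seeing the data as were the other left-out mice, there were 8 in HOCl versus control, 8 in D06 versus control and 2 in D11 versus control, with 566, 869 and 20 genes called. In BPR21 versus control the count of members was 1 with and without that mouse. Over all genes the calls there moved from 53 to 80, and those higher from 16 to 37. The cause of these differences was not tested. Leaving out HOCl mouse 7 or D06 mouse 5, trend and robust variances, and the FDR alone moved no count of members by over 1.5 times. Over all genes, the calls moved from 14 to 69 in D06 versus HOCl without D06 mouse 5. With the FDR alone they moved from 829 to 1580 in E07 versus HOCl.

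Mouse numbers of the labels were tried as a replicate block. Mice with the same number did not deviate together in every pair, with r from -0.421 to 0.613 and 2 to 7 pairs per comparison over 0.1. The mean r of same-numbered mice was above that of other pairs in every comparison. It was lowest in D06 versus HOCl, at 0.00999 against 0.000495, and highest in E07 versus control, at 0.146 against -0.00971. Whether the numbers pair the mice cannot be settled from these values. The replicate block gave 1 in HOCl versus control, 1 in D11 versus control and 3 in BPR21 versus control. The genes called over the whole table moved too, from 521 to 85, from 8 to 115 and from 53 to 534. It moved no other count of members by over 1.5 times.

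Gp1bb, with few counts, was tested only by edgeR without a filter and was not called.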
